A study of Mus musculus with 8 samples.

Results

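Nuclear receptors are transcription factors whose activity is set by small lipid-soluble ligands such as thyroid hormone, retinoic acid, oxysterols and steroids, or, for the orphan receptors, by their own amount and by partner proteins. They bind short DNA elements alone, as pairs of the same receptor or as pairs with a retinoid X receptor, and recruit coactivators and corepressors that open or close chromatin. In the gut, HNF4 receptors maintain the enterocyte programme, PXR and CAR sense foreign compounds, and LRH-1 (Nr5a2) acts in crypt renewal and local steroid synthesis. The genes described here are 38 named nuclear receptors and coregulators, taken by symbol from the probe sets of the deposited table. Of these, 37 genes were matched, with 39 probe sets among the 26180 of the table, and no probe set was matched to Ncoa3, which is not analysed here. They stand among 14351 genes that could be named.

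The RNA came from the colon of adult mice, and Affymetrix arrays read its transcripts. The wild type group, WT, has 3 arrays, and the STAT5b-/- group has 3 from mice labelled as deficient for STAT5b, which carries growth hormone and cytokine signals to the nucleus. A further sample, titled REF, has the labelled genotype wild type, but the labels do not say what its title stands for. It was deposited as 2 columns that differed by at most 2.47e-07 of their value and was counted as 1 sample. The labels give 1 male, STAT5b-/- replicate 1, and females otherwise. They describe neither the STAT5b allele nor whether each replicate is another animal, so the spread behind every p-value may be technical.

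The values are linear ratios: each probe set is scaled so that its WT mean is 1, and no level can be compared between genes. The table holds no detection calls, so it cannot show whether the transcript of a receptor such as Nr5a1 or Rxrg was present, nor can the tissue label be checked by level. Stat5b had ratios of 1.08, 0.93 and 0.993 in WT, 1.16, 1.17 and 1.26 in STAT5b-/- and 1.18 in REF. Its probe set was thus not lower in the arrays labelled STAT5b-/- (0.26 ± 0.12 on the log2 scale, adjusted p = 0.175), and the directions given here rest on the labels.

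Of the 37 receptors and coregulators, 6 were higher and 4 lower in STAT5b-/- colon (limma, Benjamini-Hochberg adjusted p under 0.05 over all genes). The rises were in the xenobiotic receptor PXR (Nr1i2), the testicular receptor TR2 (Nr2c1), the thyroid hormone receptor Thra, both HNF4 genes and the coactivator Ppargc1b. The falls were in the NR4A receptor Nurr1 (Nr4a2), the estrogen-related receptor Esrrg, the testicular receptor TR4 (Nr2c2) and LRH-1 (Nr5a2). The called share, 27%, lay near the 21.7% called over all genes (16.2% higher against 13.3%, and 10.8% lower against 8.42%). The groups did not overlap in 15 of the 37, or 40.5%, against 41.5% of all genes. The median log2 fold change of the 37 was 0.05, against 0.007 over all genes, and 27 did not pass. As a class these genes were called about as often as other genes, and the values that follow concern single genes and families.

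**Figure D1:**
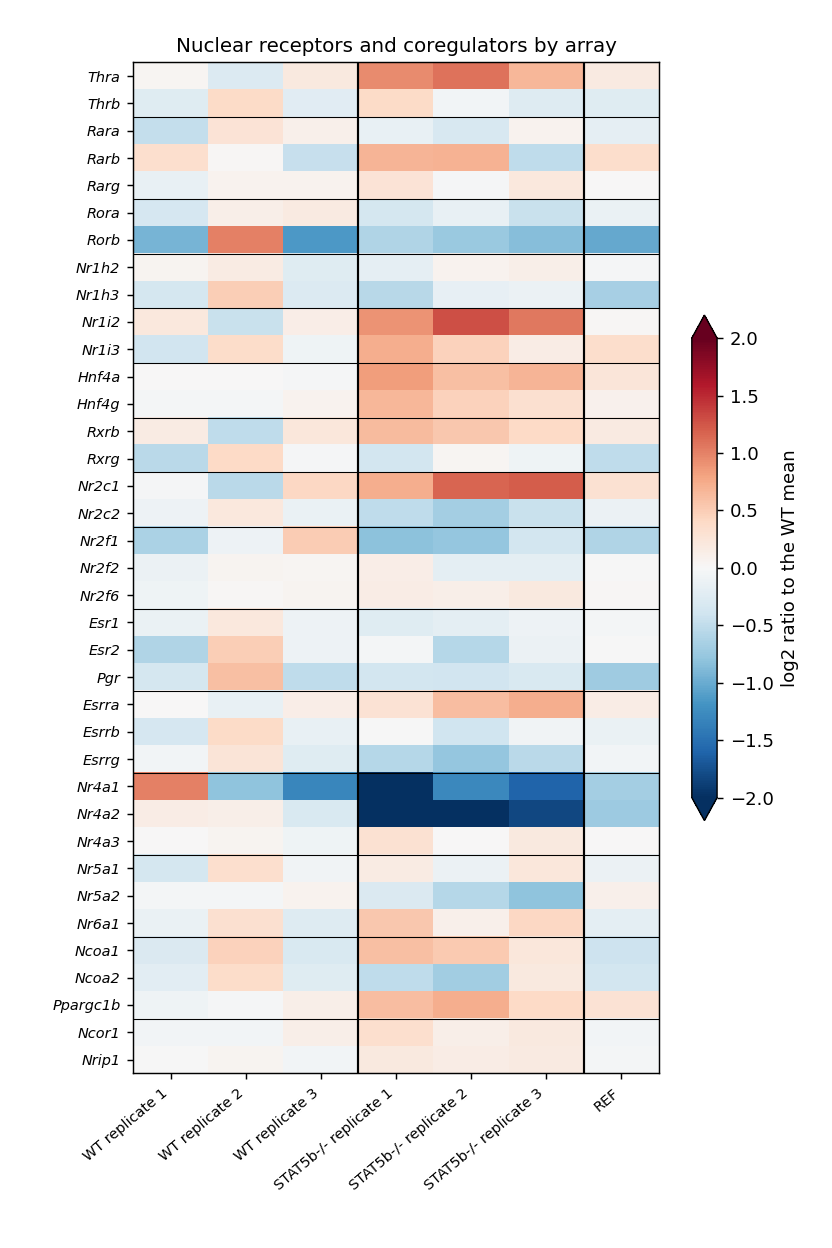
Heat map of the log2 ratio to the WT mean (colour, limited to -2 and 2) of the 37 genes (rows, grouped by family) in the 3 WT arrays, the 3 STAT5b-/- arrays and REF (columns). Nr4a2 is dark blue in all 3 STAT5b-/- arrays, with ratios of 0.214 to 0.284, and Nr1i2 and Nr2c1 are red there.

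Among the WT arrays, replicate 2 had the highest ratio in 22 of the 37 genes, or 59.5%, against 48.9% of all genes. It was highest in 19 of the 27 genes that did not pass and in 3 of the 10 that did. No such split was made over all genes, and the WT spread enters the test, so the split is no trait of these genes. Over all probe sets, the median ratio was 1.0447 in replicate 2, against 0.9603 in replicate 1 and 0.9764 in replicate 3.

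How often a call held differed between genes. Under 13 other ways of processing or choosing arrays, Nr4a2 passed in all 13, Hnf4a in 12 and Nr1i2 in 11, while Nr5a2 passed in 4 and Hnf4g and Nr2c2 in 5 each. These tallies include taking the probe set with the highest mean and leaving out probe sets at the lowest value of the table. Each of the 10 called genes has 1 probe set, never at that value, so both settings repeat the main fit for them. With the replicate number as a block, only Hnf4a, Nr1i2, Nr2c1 and Nr4a2 kept their call. Quantile normalization, which forces all arrays to 1 distribution of ratios, left 1 of the 10 calls, Nr4a2. It called 392 genes in all, against 3119. The ratios are scaled to the WT mean, and their log2 SD was 0.289 to 0.363 in the WT arrays. In the STAT5b-/- arrays it was 0.646 to 0.737. This setting therefore widens the WT values and narrows the STAT5b-/- values. Here and below, a call lost under it cannot be told apart from that change of scale. None of the 10 changed direction under any of the 13. Their groups do not overlap, so leaving out 1 array could not have reversed them.

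**Figure D2:**
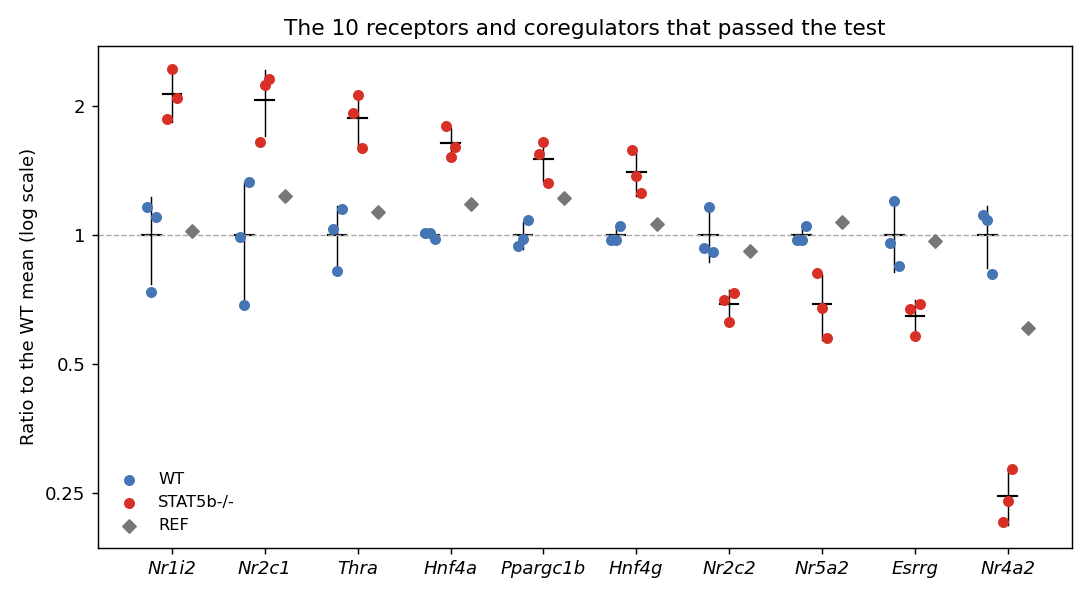
Ratio to the WT mean (log scale) of the 10 genes that passed the test, ordered by fold change, with 1 point per array. Bars give the mean and SD of the 3 WT arrays (blue) and the 3 STAT5b-/- arrays (red), and the grey diamond is REF. The red and blue points do not overlap in any of the 10, and the distance is widest for Nr4a2.

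The NR4A receptors are orphan receptors without a usual ligand pocket, whose genes are switched on rapidly by stimuli that act through cyclic AMP and calcium. Nr4a2 had ratios of 1.11, 1.08 and 0.81 in WT, 0.214, 0.24 and 0.284 in STAT5b-/- and 0.607 in REF. All STAT5b-/- arrays lay far below all WT arrays, and REF lay between the groups. The fall was 4.05-fold, a log2 fold change of -2.02 ± 0.18 (SE, n = 3 per group), with a limma adjusted p of 0.000771 and of at most 0.0262 under the alternatives. Nr4a1 (Nur77), often used as a marker of recent receptor stimulation, had ratios of 2.02, 0.573 and 0.403 in WT, 0.162, 0.41 and 0.329 in STAT5b-/- and 0.624 in REF. Its groups overlapped and WT replicate 1 alone stood high, and a log2 fold change of -1.47 ± 0.63 did not pass (adjusted p = 0.149). Nr4a3 (Nor1) had ratios of 1.01, 1.04 and 0.942 in WT and 1.23, 1 and 1.14 in STAT5b-/-, which overlap (0.17 ± 0.13, adjusted p = 0.426). Within an array, the log2 ratio of Nr4a3 minus that of Nr4a2 was -0.14 to 0.22 in WT and 2.01 to 2.53 in STAT5b-/-. The mean difference was 2.19, and the exact two-sided permutation test gave p = 0.1, the smallest that 3 arrays against 3 allow. This and the other comparisons of relatives below were chosen with the values known.

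The promoters of these 3 genes are shown because they share a short element, while Nr4a2 alone passed the test. Each line gives the 250 bases before a RefSeq start site (GRCm38.p6), 5′ to 3′ on the gene's strand, with capitals for TGACG on either strand, the core letters of the cyclic AMP element. The windows are chr15:101266596-101266845, plus strand for Nr4a1, chr2:57124004-57124253, minus strand for Nr4a2 and chr4:48045055-48045304, plus strand for Nr4a3.
Nr4a1: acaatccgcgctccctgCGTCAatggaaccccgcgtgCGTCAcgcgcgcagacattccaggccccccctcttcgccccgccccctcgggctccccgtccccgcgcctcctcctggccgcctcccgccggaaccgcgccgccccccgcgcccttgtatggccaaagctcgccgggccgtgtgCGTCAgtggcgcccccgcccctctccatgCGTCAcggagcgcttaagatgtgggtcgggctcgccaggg
Nr4a2: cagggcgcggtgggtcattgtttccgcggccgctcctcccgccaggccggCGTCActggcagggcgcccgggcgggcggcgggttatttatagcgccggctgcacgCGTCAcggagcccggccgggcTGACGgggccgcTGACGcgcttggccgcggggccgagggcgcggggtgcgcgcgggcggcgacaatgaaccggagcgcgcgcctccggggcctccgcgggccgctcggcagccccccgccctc
Nr4a3: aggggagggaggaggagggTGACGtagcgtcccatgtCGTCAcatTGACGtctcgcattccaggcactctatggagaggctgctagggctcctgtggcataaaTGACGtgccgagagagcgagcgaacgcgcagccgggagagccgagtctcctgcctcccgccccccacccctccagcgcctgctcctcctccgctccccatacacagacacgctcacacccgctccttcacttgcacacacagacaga
Each of the 3 windows holds TGACG 4 times. Of the 32851 promoter windows of this length in the RefSeq table, 17.8% hold it at least once and 0.137% at least 4 times. The windows are rich in G and C, with 74.4%, 80% and 63.6% of bases, and the share over all promoters was not matched for that. The letters were chosen after these windows and the values of these genes were seen, so the shares describe the windows and test nothing. Nr4a2, which fell, and Nr4a3, which did not pass, do not differ in the number of these letters in the window.

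HNF4 receptors bind DNA as pairs and hold fatty acids in their pocket, and they drive lipid handling and brush border genes of the intestinal epithelium. Hnf4a had ratios of 1.01, 1.01 and 0.979 in WT, 1.79, 1.52 and 1.6 in STAT5b-/- and 1.18 in REF. Its WT arrays lay within a narrow band, and every STAT5b-/- array was above them and above REF. The rise was 1.63-fold (log2 fold change 0.70 ± 0.12, adjusted p = 0.00801), and quantile normalization alone of the 13 alternatives ended the call (adjusted p = 0.119). Hnf4g, which in the gut overlaps with Hnf4a in function, had ratios of 0.975, 0.973 and 1.05 in WT, 1.58, 1.37 and 1.25 in STAT5b-/- and 1.06 in REF. It rose 1.39-fold (0.48 ± 0.13, adjusted p = 0.0468), with every STAT5b-/- array above REF and WT. This call ended when any 1 of the 6 arrays was left out, with adjusted p from 0.062 without WT replicate 2 to 0.128 without STAT5b-/- replicate 1. The difference Hnf4a minus Hnf4g rose by 0.23 on the log2 scale (exact permutation p = 0.1, the smallest possible).

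Of 19 genes known to depend on HNF4 in the gut epithelium, 6 rose and 1 fell. The called share was 36.8%, against 21.7% of all genes, and the median log2 fold change 0.60. The cadherin Cdh17 rose by 0.85 ± 0.14, the fatty acid binding protein Fabp2 by 1.19 ± 0.21, the keratin Krt20 by 0.71 ± 0.14 and villin (Vil1) by 0.55 ± 0.12, and the peptidase Dpp4 fell by 0.51 ± 0.13. The count of 7 fell to 4 without WT replicate 1, 4 without STAT5b-/- replicate 1, 3 without replicate 2 and 2 without replicate 3, and none passed under quantile normalization.

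Markers of several cell types moved beside these receptors, and the lists overlap: of the HNF4 genes, Vil1, Cdx2, Lgals4 and Cldn7 are also among the epithelial markers and Krt20 among the surface colonocyte markers, so Vil1, Cdx2 and Krt20 count as risen in both. Surface colonocyte markers rose in 8 of 10 and fell in 1, with a mean ratio over the list of 0.978 to 1.04 in WT, 2.31 to 2.45 in STAT5b-/- and 1.12 in REF. General epithelial markers rose in 4 of 11 and fell in 1, with 1.34 to 1.41 in STAT5b-/-. Goblet cell markers fell in 6 of 8 (0.386 to 0.486), fibroblast markers in 9 of 12 (0.54 to 0.645) and macrophage markers in 6 of 9 (0.529 to 0.709), and none of these 3 lists held a gene that rose. Endothelial markers fell in 3 of 10, enteric neuron and glia markers in 2 of 9, and of 9 smooth muscle markers none passed. Over all genes, 13.3% were called higher and 8.42% lower. No marker was at the lowest value of the table. Left-out arrays moved these counts too: epithelial markers to 1 called without STAT5b-/- replicate 2 or 3, and macrophage markers to 3 without replicate 1 or 2. Under quantile normalization, 5 goblet, 4 fibroblast and 2 macrophage markers passed, all lower, and 1 surface colonocyte and 1 epithelial marker, both higher. Of the enteric neuron and glia markers 1 passed there, and no endothelial marker did. In bulk tissue, more cells of a type and more RNA per cell cannot be told apart, and the part of these markers in the receptor changes was not tested.

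PXR (Nr1i2) and CAR (Nr1i3) switch on enzymes and pumps against drugs and bile acids. Nr1i2 had ratios of 1.16, 0.736 and 1.1 in WT, 1.86, 2.44 and 2.08 in STAT5b-/- and 1.02 in REF. REF lay within the WT range, and all STAT5b-/- arrays lay above it. The rise was 2.16-fold (1.11 ± 0.21, adjusted p = 0.0117), and the call ended without STAT5b-/- replicate 2 (adjusted p = 0.0532) and under quantile normalization (0.386). Nr1i3 had ratios of 0.766, 1.29 and 0.942 in WT and 1.66, 1.37 and 1.11 in STAT5b-/-, with overlap, and did not pass (0.48 ± 0.24, adjusted p = 0.209). The difference between both receptors within an array overlapped between the groups (exact permutation p = 0.3).

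Of 16 enzymes, pumps and other genes that these receptors are known to induce, 10 rose and none fell. The called share was 62.5%, against 21.7% of all genes, and the median log2 fold change of the 16 was 1.24. Their mean ratio was 0.869 to 1.08 in WT, 0.946 in REF and 2.61 to 2.84 in STAT5b-/-. The carboxylesterase Ces2a rose by 3.0 ± 0.25, the drug pump Abcb1a by 1.79 ± 0.16, Por, which passes electrons to microsomal cytochromes P450, by 1.61 ± 0.15, and Cyp2c55 by 1.68 ± 0.19. The other 6 did not pass: Cyp3a11 (-0.43 ± 0.36), Cyp3a44 (0.19 ± 0.19), Cyp2b10 (0.0046 ± 0.15), Cyp2b9 (-0.02 ± 0.26), Abcc2 (0.20 ± 0.35) and Gstm1 (0.47 ± 0.15). Quantile normalization left 1 call in this list.

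Retinoid X receptors are the common partner of the thyroid hormone, retinoic acid, oxysterol and xenobiotic receptors. Rxrb had ratios of 1.12, 0.704 and 1.17 in WT, 1.55, 1.46 and 1.32 in STAT5b-/- and 1.13 in REF, groups that do not overlap, but its log2 fold change of 0.56 ± 0.22 did not pass (adjusted p = 0.114). Rxrg overlapped, with 0.691 to 1.32 in WT and 0.777 to 1.03 in STAT5b-/-. Rxra, which is not among the 37 but completes the family, had ratios of 0.964, 0.927 and 1.11 in WT and 2.47, 2.18 and 2.01 in STAT5b-/-, a log2 rise of 1.15 ± 0.14 (adjusted p = 0.00239).

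Thyroid hormone receptors hold target genes silent without hormone and switch them on with it, and Thra is the form of the intestinal crypt. Thra had ratios of 1.03, 0.824 and 1.15 in WT, 1.92, 2.12 and 1.59 in STAT5b-/- and 1.13 in REF. The STAT5b-/- arrays were all above the WT arrays and REF. The rise was 1.88-fold (0.91 ± 0.18, adjusted p = 0.0128), with adjusted p = 0.0536 without STAT5b-/- replicate 1, the male, 0.0571 without replicate 2 and 0.334 under quantile normalization. With the replicate block, the limma adjusted p was 0.0517. Thrb had ratios of 0.849 to 1.3 in WT and 0.836 to 1.3 in STAT5b-/-, nearly the same range (0.05 ± 0.24, adjusted p = 0.912). The log2 difference Thra minus Thrb rose by 0.87 on average with no overlap between groups (exact permutation p = 0.1, the smallest possible). Of 14 genes of thyroid hormone handling and response, 3 rose and none fell, with a median of 0.04. The called share, 21.4%, lay near the 21.7% of all genes. Dio1, the deiodinase that makes active hormone, rose by 3.0 ± 0.15, the mitochondrial carrier Ucp2 by 1.16 ± 0.20 and Bcl3 by 0.51 ± 0.13.

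None of the 3 retinoic acid receptors passed. Rara had ratios of 0.718 to 1.21 in WT and 0.8 to 1.05 in STAT5b-/-, and Rarg 0.904 to 1.05 and 0.983 to 1.21. Rarb, itself a target of retinoic acid, had ratios of 1.61, 1.62 and 0.701 in STAT5b-/- and 1.26, 1.02 and 0.723 in WT, so that replicate 3 lay far below the other STAT5b-/- arrays. Of 18 genes of retinoic acid handling and response, a list that holds Rarb, 4 rose and 1 fell, with a median of -0.09. The called share was 27.8%, against 21.7% of all genes. The retinol carrier of serum, Rbp4, fell by 3.70 ± 0.15, to ratios of 0.07 to 0.0904 in STAT5b-/-. Aldh1a1, which makes retinoic acid, rose by 1.66 ± 0.21 and the retinal reductase Dhrs3 by 0.83 ± 0.13. Aldh1a1 is also counted as risen in the list of PXR and CAR targets.

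The RORs, which act in circadian and immune programmes, did not pass either. Rora had ratios of 0.79, 1.08 and 1.13 in WT and 0.783, 0.903 and 0.732 in STAT5b-/- (-0.30 ± 0.18, adjusted p = 0.292). Rorb had 0.527, 2.02 and 0.451 in WT and 0.554 to 0.66 in STAT5b-/-, so WT replicate 2 set the WT mean, and its log2 fold change of -0.38 became 0.31 without that array. The liver X receptors, sensors of oxysterols that promote cholesterol export, overlapped as well, Nr1h2 with 0.844 to 1.12 in WT and 0.884 to 1.08 in STAT5b-/-, and Nr1h3 with 0.781 to 1.4 and 0.682 to 0.92. Of 15 liver X receptor target genes, a list that holds Nr1h3 itself, 1 rose and 1 fell, 13.3% called against 21.7% of all genes. These were the lysophospholipid acyltransferase Lpcat3, up by 0.97 ± 0.22, and the cholesterol exporter Abcg1, which fell by 1.11 ± 0.21. Without STAT5b-/- replicate 2, 1 gene of the list passed as higher, and without replicate 3, 1 passed as lower.

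The testicular receptors TR2 (Nr2c1) and TR4 (Nr2c2) are orphan receptors that bind DNA together, and in these arrays they moved in opposite directions. Nr2c1 had ratios of 0.987, 0.687 and 1.33 in WT, 1.65, 2.23 and 2.31 in STAT5b-/- and 1.23 in REF. Nr2c2 had 0.931, 1.16 and 0.911 in WT, 0.706, 0.627 and 0.733 in STAT5b-/- and 0.918 in REF. In both genes the groups were apart and REF lay within the WT range. Nr2c1 rose 2.11-fold (1.08 ± 0.26, adjusted p = 0.0287) and Nr2c2 fell 1.45-fold (-0.53 ± 0.15, adjusted p = 0.0428). Within an array, Nr2c1 minus Nr2c2 was -0.75 to 0.54 in WT and 1.22 to 1.83 in STAT5b-/- on the log2 scale, a mean difference of 1.61 (exact permutation p = 0.1, the smallest possible). The call of Nr2c2 ended when any 1 array was left out (adjusted p from 0.0539 without WT replicate 2 to 0.145 without STAT5b-/- replicate 2). That of Nr2c1 ended without WT replicate 1 (0.0645), without STAT5b-/- replicate 2 (0.103) or 3 (0.101), and, at the threshold itself, without replicate 1.

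The COUP-TFs, regulators of mesenchyme, vessels and neurons, did not pass. Nr2f1 had ratios of 0.645, 0.937 and 1.42 in WT, 0.569, 0.583 and 0.774 in STAT5b-/- and 0.656 in REF (-0.58 ± 0.29, adjusted p = 0.218). The WT arrays spanned most of the range, and REF lay with the low ones. Nr2f2 has 2 probe sets that disagreed in STAT5b-/- replicate 1, with ratios of 0.931 and 1.3, and its log2 fold change was -0.08 ± 0.14. Nr2f6 had groups that did not overlap, 0.94 to 1.04 against 1.09 to 1.15, but a small change of 0.16 ± 0.11 (adjusted p = 0.375). Of 14 stromal genes linked with COUP-TFs, which include Nr2f1 and Nr2f2, none rose and 3 fell. The called share, 21.4%, lay near the 21.7% of all genes. Bmp4, a stromal signal to the epithelium, fell by 1.02 ± 0.16, the stromal factor Tcf21 by 0.86 ± 0.23 and the chemokine Cxcl12 by 0.65 ± 0.18. Of the list, 1 gene passed without WT replicate 1 or 3 or STAT5b-/- replicate 1 or 2. The fall of fibroblast markers is given above.

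Estrogen and progesterone receptors showed no call. Esr1 had ratios of 0.91, 1.16 and 0.927 in WT and 0.844, 0.877 and 0.929 in STAT5b-/- (-0.17 ± 0.14, adjusted p = 0.454). Esr2 (0.656 to 1.41 in WT) and Pgr (0.707 to 1.51 in WT) were highest in WT replicate 2, and their log2 fold changes of -0.17 and -0.26 became 0.11 and 0.08 without it. Of 14 estrogen receptor targets, a list that holds Pgr and Nrip1, 2 rose and 3 fell, 35.7% called against 21.7% of all genes. One fall was that of Cxcl12, given above with the COUP-TF list. Xbp1, a factor of the secretory stress response, fell by 0.83 ± 0.14 and the binding protein Igfbp4 by 0.66 ± 0.16, while the lysosomal protease Ctsd rose by 0.68 ± 0.14 and Greb1 by 0.61 ± 0.17. With 1 array left out, from 1 (without STAT5b-/- replicate 2 or WT replicate 3) to 6 of the 14 passed.

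The estrogen-related receptors bind no estrogen and, with the PGC-1 coactivators, set the level of mitochondrial genes. Esrra had ratios of 1, 0.898 and 1.1 in WT, 1.22, 1.53 and 1.65 in STAT5b-/- and 1.11 in REF. The groups did not overlap, and the log2 fold change of 0.54 ± 0.16 just missed the threshold (adjusted p = 0.0537), passing without STAT5b-/- replicate 1 and when REF was counted as wild type. Esrrg had 0.959, 1.2 and 0.845 in WT, 0.673, 0.582 and 0.69 in STAT5b-/- and 0.966 in REF, a 1.53-fold fall (-0.61 ± 0.17, adjusted p = 0.0405). Its call ended without WT replicate 1 (0.081) and without STAT5b-/- replicates 1 (0.0991), 2 (0.138) or 3 (0.0939). It also ended with the replicate block (0.108) and under quantile normalization (0.33). Esrra minus Esrrg within an array was -0.41 to 0.38 in WT and 0.85 to 1.39 in STAT5b-/- on the log2 scale (mean difference 1.16, exact permutation p = 0.1, the smallest possible). Esrrb overlapped, with 0.788 to 1.31 in WT and 0.758 to 0.999 in STAT5b-/-.

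Ppargc1b, the coactivator PGC-1beta, had ratios of 0.942, 0.979 and 1.08 in WT, 1.54, 1.65 and 1.32 in STAT5b-/- and 1.22 in REF. REF lay above all WT arrays and below all STAT5b-/- arrays. The rise was 1.5-fold (0.59 ± 0.14, adjusted p = 0.0249), and the call ended without WT replicate 1 (0.0729) and without STAT5b-/- replicate 1 (0.0833) or 2 (0.0978). The call of Ppargc1b also ended with the replicate block (0.0833) and under quantile normalization (0.306). Its relative Ppargc1a, not among the 37, fell by 0.68 ± 0.14 (adjusted p = 0.0143), from ratios of 0.907 to 1.07 in WT to 0.559 to 0.677. Of 22 genes that the estrogen-related receptors and PGC-1 are known to drive, a list that holds Esrra, 9 rose and none fell. The called share was 40.9%, against 21.7% of all genes, and the list median was 0.39. Those that rose included the pyruvate dehydrogenase kinase Pdk4 (2.24 ± 0.25), cytochrome c (Cycs, 1.38 ± 0.19), the acyl-CoA dehydrogenase Acadm (0.90 ± 0.14) and the succinate dehydrogenase subunit Sdhb (0.80 ± 0.12). With 1 array left out, 6 to 10 of the 22 passed, all of them higher, and 1 passed under quantile normalization.

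LRH-1 (Nr5a2), which binds phospholipids, had ratios of 0.974, 0.973 and 1.05 in WT, 0.816, 0.676 and 0.574 in STAT5b-/- and 1.07 in REF. All 3 STAT5b-/- arrays lay below the WT arrays and REF. The fall was 1.47-fold (-0.55 ± 0.16, adjusted p = 0.049), at the edge of the threshold: median centring gave 0.0675, robust shrinkage of variances 0.0511, and leaving out 1 array from 0.0388 without STAT5b-/- replicate 1 to 0.152 without replicate 3. The window before the farther upstream of its RefSeq starts (chr1:136960449-136960698, minus strand, GRCm38.p6) is shown because no other window of a called gene holds AGGTCA on either strand, the core letters of nuclear receptor elements, in capitals here.
Nr5a2: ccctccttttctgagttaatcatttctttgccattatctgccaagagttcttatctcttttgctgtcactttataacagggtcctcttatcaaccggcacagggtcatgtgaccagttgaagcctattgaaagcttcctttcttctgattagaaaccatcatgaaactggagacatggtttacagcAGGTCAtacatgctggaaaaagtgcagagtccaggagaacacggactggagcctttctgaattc
AGGTCA stood in 9.62% of the 52 windows of these genes and in 14% of all windows. TTCNNNGAA, the core that STAT factors bind, stood in 4 of the 52 windows (7.69%, against 7.02% of all), those of Esr1, Esrrb, Rara and Rarb, and in none of the 12 windows of called genes. Windows were found for 32 of the 37 genes, 7 of them called, and not for Hnf4g, Thra, Ppargc1b, Nr5a1 and Ncoa2.

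Of 15 genes of LRH-1 action and gut steroid synthesis, 4 rose and 1 fell, with a median of -0.03. The called share was 33.3%, against 21.7% of all genes. Hsd3b2, of the steroid synthesis path, rose by 2.43 ± 0.38, the electron carriers Fdx1 and Fdxr by 0.59 ± 0.12 and 1.03 ± 0.21, while Hsd11b1, which reactivates glucocorticoids, fell by 0.91 ± 0.15. The count of called genes was 2 without STAT5b-/- replicate 2 and 3 without replicate 1 or 3. The relatives Nr5a1 (SF-1, a receptor of adrenal and gonad) and Nr6a1 (GCNF, of germ cells) did not pass, with log2 fold changes of 0.12 ± 0.20 and 0.37 ± 0.20.

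Of the p160 coactivators, which bring acetyltransferases to receptors, Ncoa1 had ratios of 0.819, 1.37 and 0.813 in WT, 1.52, 1.43 and 1.17 in STAT5b-/- and 0.749 in REF. WT replicate 2 alone overlapped the STAT5b-/- arrays, and a log2 fold change of 0.49 ± 0.24 (adjusted p = 0.192) passed without that array at 0.74 (adjusted p = 0.0151). Ncoa2 overlapped, with 0.847 to 1.29 in WT and 0.616 to 1.15 in STAT5b-/-. The corepressors Ncor1, which carries the histone deacetylase HDAC3, and Nrip1, which opposes energy genes, had groups that did not overlap but changes of 0.22 ± 0.12 and 0.18 ± 0.11 that did not pass (adjusted p = 0.276 and 0.319). Of 27 other coregulators, 4 rose and 1, Ppargc1a, fell, 18.5% called against 21.7% of all genes. The 4 were Hdac3 itself (0.98 ± 0.14), the NCoR complex subunit Tbl1xr1 (0.84 ± 0.14), and Kdm1a (0.65 ± 0.12) and Rcor1 (0.99 ± 0.19) of the CoREST complex. Without STAT5b-/- replicate 3, 3 of the 27 passed, all higher.

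Of 15 receptors outside the 37, 6 rose and none fell, 40% called against 21.7% of all genes. Beside Rxra, the adipogenic receptor Pparg (2.05 ± 0.28), the clock receptor Nr1d1 (1.89 ± 0.21) and the vitamin D receptor Vdr (0.73 ± 0.12) rose. So did the bile acid receptor Nr1h4 (0.76 ± 0.14) and the fatty acid receptor Ppara (1.13 ± 0.32). Of 7 adipocyte markers, 3 rose, 42.9% called against 21.7% of all genes, and the list median was -0.03. Cidec (3.37 ± 0.32), Lipe (1.63 ± 0.15) and Plin4 (1.22 ± 0.28) of the lipid droplet rose, while the secreted adipocyte products Adipoq (-1.32 ± 0.69), Cfd (-0.93 ± 0.84) and Lep (-0.64 ± 0.26) did not pass. The mean ratio of the list, 0.649 to 1.53 in WT and 2.25 to 2.89 in STAT5b-/-, is carried by Cidec, with 8.25 to 12.8 in STAT5b-/-. The part of these genes in the receptor changes was not tested.

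**Figure D3:**
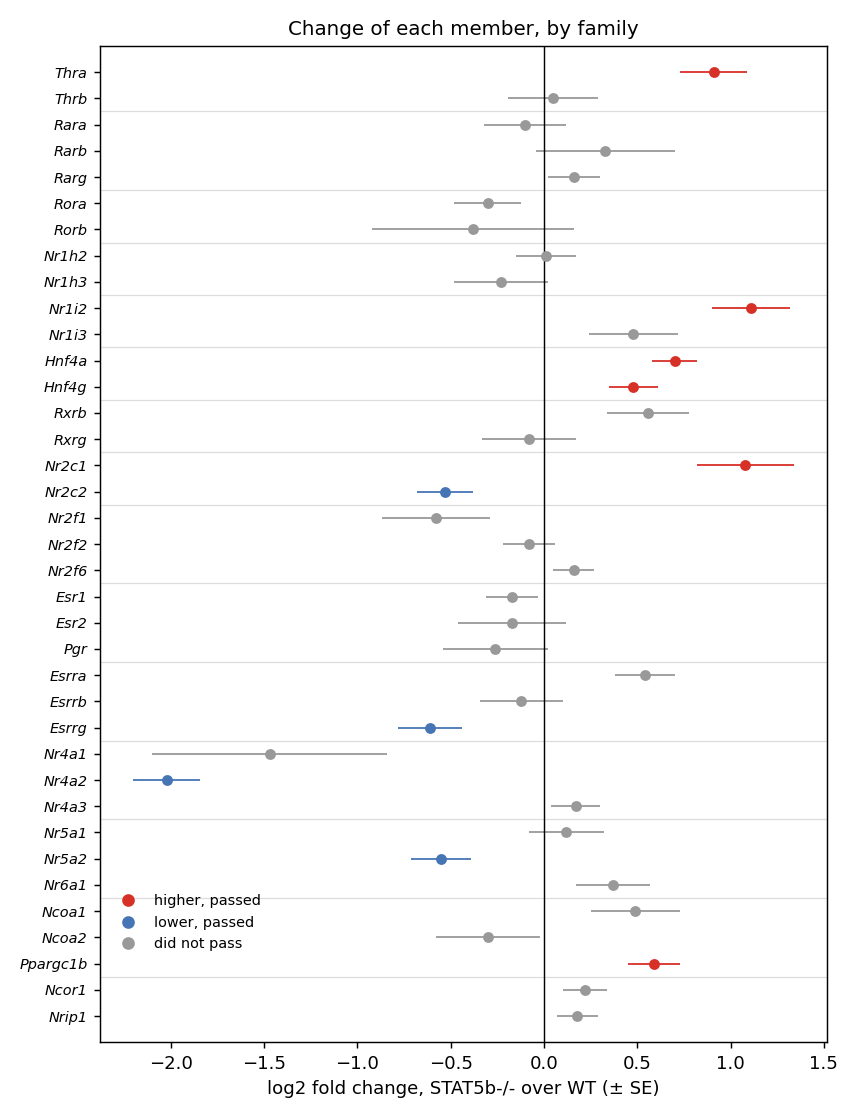
Log2 fold change, STAT5b-/- over WT, of each of the 37 genes (points, with SE as bars), grouped by family. Red and blue points passed the limma test as higher and lower, and grey points did not. Nr2c1 at 1.08 and Nr2c2 at -0.53 are the family whose called members point apart.

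**Figure D4:**
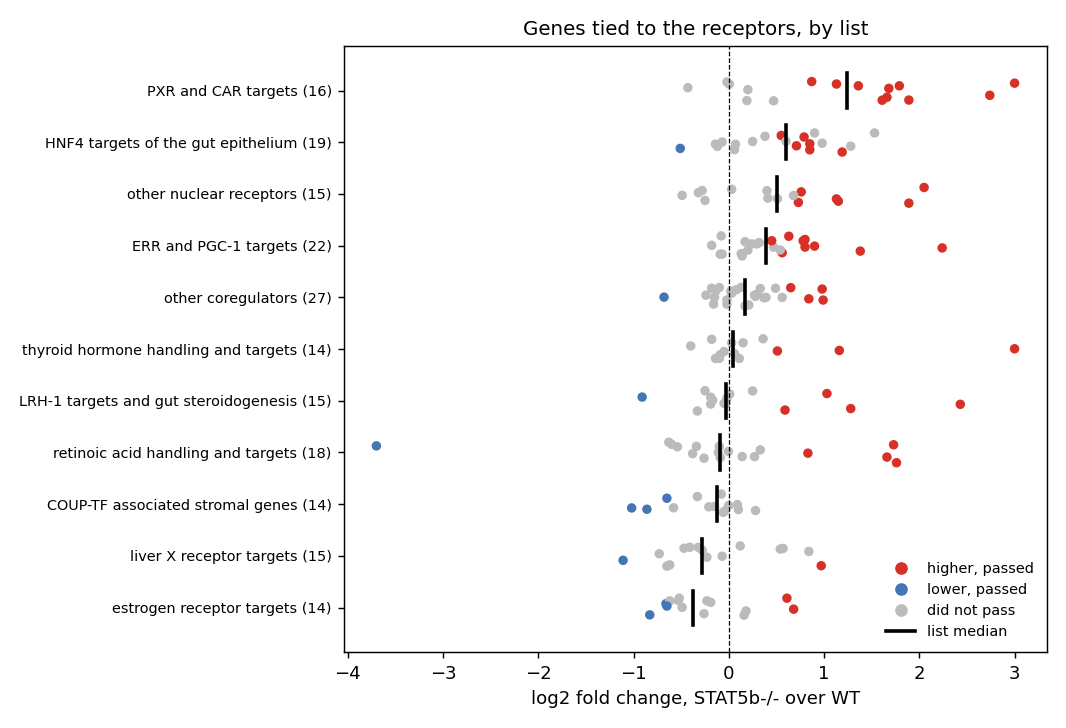
Log2 fold change of every tested gene in the 11 lists of related genes (points), with the list median as a bar. The list of PXR and CAR targets has the highest median, 1.24, and that of estrogen receptor targets the lowest, -0.38.

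The ratio of REF lay within the WT range in 25 of the 37 genes and outside in 12. Among the 10 called genes it was outside the WT range in 5: Nr4a2 (0.607), Ppargc1b (1.22), Hnf4a (1.18), Hnf4g (1.06) and Nr5a2 (1.07). A limma test with REF as an arm of 1 sample called 0 of the 37 and 0% of all genes (0 of the 37 and 1.45% of all genes at an unadjusted p under 0.05). With 1 sample in an arm, the lack of calls says nothing about how alike REF and WT are.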

How the data were processed

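Per the labels' protocols, 100 ng of total RNA was amplified and labelled with biotin for Affymetrix arrays. RMA is named in the submitters' processing notes, with no version. The deposited values are linear ratios: the mean of the WT columns is 1 in every probe set, to within 1.87e-07, so the authors' table gives each value over the WT mean. The lowest value is 0.01, reached by 19 probe sets, none of them of the 37 genes. The number of arrays limits the precision.

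Accessions in the probe set names were matched to RefSeq's gene table (GRCm38.p6, for names only): 15228 of 26180 probe sets matched 1 symbol and 10952 none. Ratios were taken to log2 with no pseudocount and no filter on low values, probe sets of a gene were averaged, and groups were compared with limma 3.58.1 (lmFit, eBayes) in R 4.3.3, two-sided, with Benjamini-Hochberg adjustment over 14351 genes and a threshold of 0.05. Fold changes come from mean log2 ratios. The fit was tested on simulated data. Relatives were compared within arrays by exact permutation in 6 pairs of genes, of which none can reach 0.05. Lists are given by counts and medians, with no set test. All 37 genes are reported, those that passed in full; of each list, up to 4 called genes by smallest p are named, and others only to complete a family or a count. The genes and lists were chosen with earlier results of these data known, and the letters TGACG after the promoters were seen.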

Additional observations from a re-analysis of the deposited data

How the results depend on the processing

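Calls over all genes numbered 3119, 392 under quantile normalization (42.1% of them higher, against 61.2%), 2039 with the replicate number as a block, and 1716 to 3551 with 1 array left out. Calls among the 37 genes numbered 10, 1 under quantile normalization, 4 with the replicate block, and 2 to 8 with 1 array left out. Called genes over the 11 lists numbered 58, 4 under quantile normalization, and 37 to 63 with 1 array left out. Deviations from the group mean had r of 0.0355, -0.0984 and -0.186 between same-numbered arrays. Between differently numbered arrays, r ran from -0.137 to 0.216. With 3 arrays per group, these values cannot show whether the replicate numbers pair the samples.

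The 10 called genes kept their direction in all 13 alternatives, and 11 of the 27 others turned sign in at least 1. The groups of the 10 do not overlap, so leaving out 1 array could not reverse them. Their kept direction there is no further support. With 1 array left out, the log2 fold change ran from -0.13 to 0.25 for Thrb, -0.32 to 0.06 for Rara, -0.78 to 0.31 for Rorb, -0.11 to 0.10 for Nr1h2, -0.38 to 0.04 for Nr1h3, -0.33 to 0.14 for Rxrg, -0.44 to 0.11 for Esr2, -0.28 to 0.09 for Esrrb, -0.47 to 0.08 for Pgr and -0.04 to 0.30 for Nr5a1. Rxrg was 0.03 with REF among the wild type arrays, and Nr2f2 was 0.03 with its probe set of the highest mean. The log2 ratio of REF to WT ran from -0.15 to 0.19 for Nr1i2 and from -0.15 to 0.10 for Esrrg with 1 array left out, and that of Esrrg was 0.06 under quantile normalization and 0.03 after median centring. The cause of these changes was not tested.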

Other observations

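Other genes of rapid induction, chosen after their values were seen, did not follow Nr4a2. Jun, Junb and Atf3, transcription factors of the stress response, rose by 1.02 ± 0.14, 1.48 ± 0.18 and 2.11 ± 0.38 on the log2 scale (SE). Fos (0.63 ± 0.25, adjusted p = 0.128), Fosb (1.24 ± 0.80) and Egr1 (0.31 ± 0.40) did not pass. All 3 were highest among the WT arrays in replicate 1, as were Nr4a1 and the called genes Nr4a2, Junb and Atf3. Jun was highest in replicate 3 (1.09, against 0.895 in replicate 1) and Nr4a3 in replicate 2. For Nr4a2, replicates 1 and 2 were close (1.11 and 1.08). The share of all genes highest in replicate 1 was not counted.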
